A study of Mus musculus with 11 samples.

Results

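DNA methylation was compared between ER-Hoxa9-Lys-GFP cells that had been without estradiol for 40 h and cells that had been without it for 56 h, all measured by reduced representation bisulfite sequencing (RRBS), which reads methylation at single CpGs of CpG-rich restriction fragments. Both groups were mouse cells of strain C57BL/6 in culture, washed, moved to medium with no estradiol and then given it back, for 80 h after the 40 h withdrawal and for 64 h after the 56 h withdrawal. All groups grew in RPMI medium with serum and with medium conditioned to hold SCF, a growth factor of blood progenitors. The comparison holds 4 of the 11 libraries of the series, 2 per group, taken by their labels because their depths are alike and low. The other 7 libraries, 1 from cells kept in estradiol and pairs withdrawn for 24 h or 72 h and returned or for 120 h with no return, were used to sort regions, as a reference, and for the spread in the tests of pooled classes and in 1 alternative fit of tiles. The longer withdrawal had the shorter return, and what each of these spans contributed cannot be told apart. Nothing in the labels states that the replicates are separate cultures. The p-values therefore cover only how far these 4 samples differ, and that may be technical.

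Hoxa9 is a homeobox transcription factor that holds myeloid progenitors in an immature, dividing state. In ER-Hoxa9 cells it is fused to the estrogen receptor's hormone-binding domain, so that it works only while estradiol is present and the cells mature once it is taken away. Lys-GFP is a reporter for lysozyme, a gene that maturing myeloid cells switch on. In mammalian DNA most CpGs are methylated, while CpG-dense promoters are largely free of the mark, and CpG-sparse sites of intermediate methylation often lie at enhancers, which gain or lose the mark as blood cells mature.

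Depth was 8234933 and 10317379 CpG-read observations in the 40 h replicates and 9749600 and 8953231 in the 56 h replicates, against 12668839 to 46899896 in the other libraries. An observation is 1 read at 1 CpG, so 1 read over neighbouring CpGs gives several. Methylated and total reads were summed in 500-bp tiles of chromosomes 1 to 19 over CpGs read in all 4 libraries. Of these, 46289 tiles had 3 or more such CpGs and 30 or more observations in each of the 4 libraries. A set of 3611 tiles held reads of 1 kind only, and the remaining 42678 were tested. Median observations per tile were 63 and 78 in the 40 h replicates and 71 and 69 in the 56 h replicates.

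Across all tiles the comparison of 56 h with 40 h called 0 of 42678 (0%) by the quasi-binomial test, moderated with limma, at a Benjamini-Hochberg adjusted 0.05, and the smallest adjusted p was 0.76. An unadjusted p under 0.05 was found in 2193 tiles (5.14%), 1133 lower (2.65%) and 1060 higher (2.48%) at 56 h. Limma on the logit also called 0, with 2270 tiles at an unadjusted p under 0.05. With all 11 libraries in 1 fit the count was 0 and the smallest adjusted p 0.112. Methylation per tile correlated at 0.992 between the 40 h replicates, 0.991 between the 56 h replicates and 0.996 between the group means (Pearson's r across 42678 tiles, which are not independent). The group means differed by less than 5 points in 85.7% of tiles, by 10 points or more in 1395 and by 20 points or more in 99.

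Small changes in single tiles were not recovered in a simulation of these libraries. Reads were simulated at the real depths, with the same average replicate noise for every tile (41704 tiles). The changes put in were falls at 56 h, in tiles of intermediate to high methylation only. Of these, 0 of 50 changes of 10 points were recovered, 6 of 50 of 20 points, 29 of 50 of 30 points and 39 of 50 of 40 points. Of 41504 tiles left unchanged, 9 were called and 6.01% had an unadjusted p under 0.05 by the same test. As a share of all calls the 9 weigh more, since few changes were recovered. A fall of 20 points in a single tile was thus mostly not detected in this simulation, with 2 libraries a group. Rises, and noise that differs between kinds of tile, were not simulated. What depth, replicate spread and the number of libraries each contributed was not tested.

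Single regions are described next as the 5 with the smallest p in each direction among tiles whose groups did not overlap and differed by 10 points or more (1.29% of tiles lower and 1.3% higher). None passed the adjusted threshold (adjusted p = 0.76 by the quasi-binomial test, moderated with limma), so none is called changed. A tile with 3 to 9 CpGs listed in any library is called sparse here, one with 10 to 24 intermediate and one with 25 or more dense. Coordinates are in mm9 as deposited. Genes are named only by the nearest start whose RefSeq promoter sequence could be placed on the deposited CpG positions, which need not be the nearest gene. Among the lower ones, the sparse tile chr1:72758001-72758500 had 45.5% and 40.8% at 40 h and 4.5% and 12.5% at 56 h (unadjusted p = 7.61e-05). It lay 167 bp from a start of Rpl37a, a ribosomal protein gene. Its difference of -34.7 points became -9.3 when each of its 9 CpGs counted equally, so its size rests on the more deeply read CpGs. The 7 other libraries ran from 11.8 to 27.1%, with both 40 h libraries above that range, 1 of the 56 h libraries below it and the other near its lower end.

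The tile chr19:11195501-11196000 had 53.7% and 59.6% at 40 h and 20% and 36.0% at 56 h, and chr1:152872001-152872500, 31436 bp from a start of the extracellular matrix gene Hmcn1, had 58.6% and 63.4% against 39.2% and 30.1%. With CpGs weighted equally these differences were -28.2 and -29.2 points, close to the values from summed reads. At both, the 72 h libraries lay above both 56 h libraries, at 46.8% and 55.0% for the former and 48.7% and 53.0% for the latter. The dense tile chr17:8534001-8534500, 397 bp from a start of Prr18, and chr18:5591001-5591500 were fully methylated in both 40 h libraries (100%) and at 88.2 to 90.7% in the 56 h libraries. At chr17:8534001-8534500, 1 of the 24 h libraries (86.7%) and 1 of the 72 h libraries (77.1%) were lower still. Its difference of -10.1 points was -7.0 with CpGs weighted equally, and that of chr18:5591001-5591500 went from -10.5 to -11.6.

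Among the higher ones, chr6:142520001-142520500 had 51.1% and 46.2% at 40 h and 89.5% and 84.8% at 56 h, on 33 to 45 observations per library. Its difference of 38.5 points was 29.5 with CpGs weighted equally. The sparse tile chr11:82841001-82841500 had 68.9% and 72.1% at 40 h and 100% and 94.1% at 56 h, and its difference of 26.6 points was 22.9 with CpGs weighted equally. The dense tile chr2:33487001-33487500 had 68.0% and 67.0% at 40 h and 84.9% and 86.3% at 56 h, and its difference of 18.1 points was 8.8 with CpGs weighted equally. At these 3 the 72 h libraries lay between the groups. Of 2 dense tiles with 500 bp between them, chr18:81184001-81184500 had 31.8% and 24.2% at 40 h and 47.8% and 58.7% at 56 h, and chr18:81183001-81183500 had 29.4% and 20.6% against 40.2% and 39.9%. The difference at the former fell from 25.3 to 13.8 points, and at the latter from 15.04 to 8.73, with CpGs weighted equally.

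**Figure D1:**
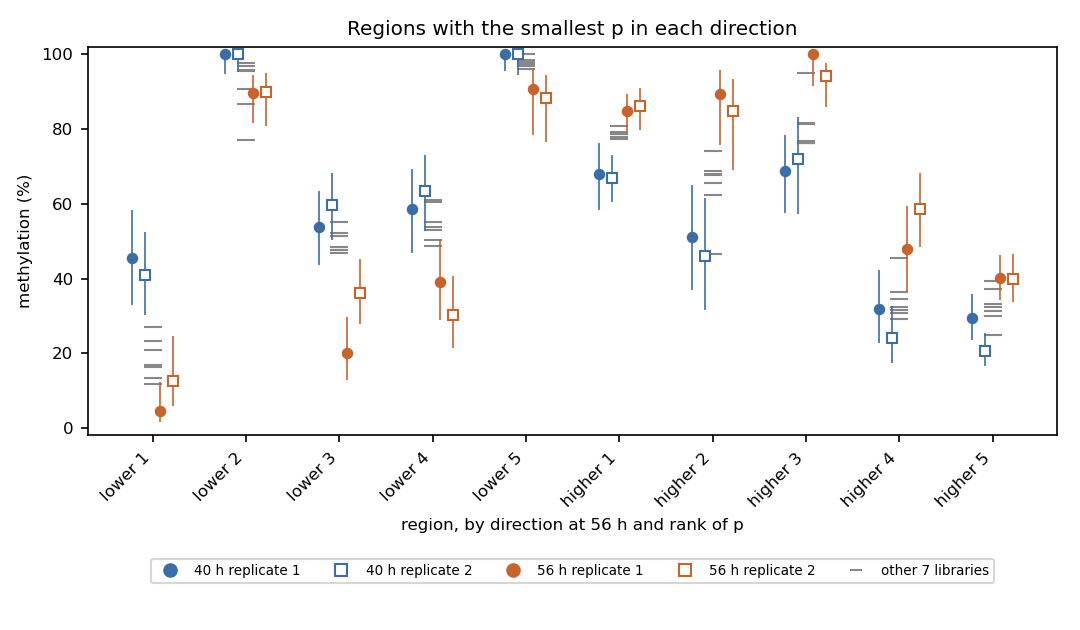
Methylation (%, y axis) of the 5 lower and 5 higher regions with the smallest p among tiles 10 points or more apart (x axis, in order of p within a direction). Points are the 40 h (blue) and 56 h (orange) libraries with Wilson 95% intervals, which cover counting error only, and grey dashes are the other 7 libraries; between 4 and 7 of the 7 dashes lie between the groups at each region.

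The spread of the tile differences was close to that of the replicates. To pool tiles, each was put in 1 of 15 classes by CpG density and by its mean methylation in the 7 libraries outside the comparison (under 10%, 10 to 30%, 30 to 70%, 70 to 90%, and 90% or more). If the groups differed only as replicates do, the SD over tiles of the group difference would equal the one given by the differences within both pairs of replicates. In sparse tiles of 90% or more these SDs were 3.28 and 3.27 points, and in sparse tiles of 30 to 70% they were 8.89 and 9.02 points. Their ratio ran from 0.92 to 1.07 over the 15 classes, highest in dense tiles of 30 to 70%, with 8.0 and 7.47 points.

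**Figure D2:**
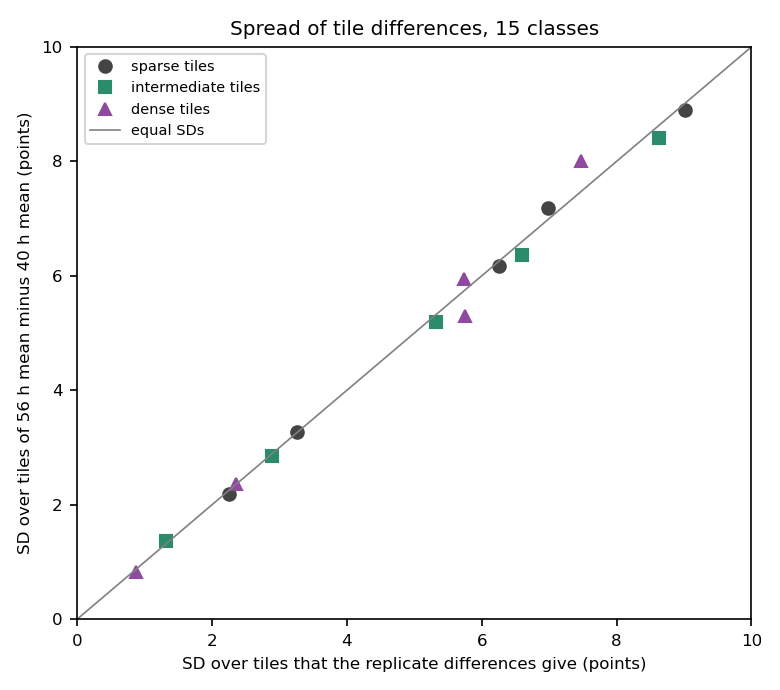
SD over tiles of the 56 h mean minus the 40 h mean (y axis, percentage points) against the SD given by the differences between replicates (x axis, percentage points), 1 symbol per class of CpG density and methylation level. All 15 classes lie near the line of equal SDs, from under 1 point in dense tiles under 10% to about 9 points in sparse tiles of 30 to 70%.

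Counting error, computed as if all observations were independent, gave a smaller spread than the replicates in partly methylated tiles. In dense tiles of 30 to 70% counting alone gave an SD of 4.27 points and the replicates gave 7.47. Of these tiles 17.5% had an unadjusted p under 0.05, against 5.14% of all tiles. In sparse tiles of 90% or more counting gave 2.92 and the replicates 3.27 points, and the share was 5.19%. The replicate chi-square averaged 1.42 per tile in the 40 h pair and 1.43 in the 56 h pair. Counting error of independent observations gives about 1. Since 1 read over neighbouring CpGs gives several observations, the true counting error is larger. What part of the excess is variation between replicates was not tested.

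None of the 15 pooled classes passed the test (limma), and 0 had an unadjusted p under 0.05. In sparse tiles of 90% or more (10351 tiles), the mean over tiles was 95.74% and 95.87% in the 40 h replicates and 95.64% and 95.65% in the 56 h replicates. The groups did not overlap, and the difference was -0.16 points with a standard error of 0.11 (limma on all 11 libraries, adjusted p = 0.637 over the 15 classes on the logit scale). With reads summed over tiles the difference was -0.15 points (limma adjusted p = 0.655). In the other libraries this class had 96.14% in cells kept in estradiol, 95.98% and 95.91% at 24 h, 95.55% and 95.73% at 72 h, and 95.62% and 95.84% at 120 h, so that the replicates of 120 h were farther apart than the means of 40 h and 56 h.

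The difference in sparse tiles of 90% or more was spread over the genome. On 17 of 19 chromosomes the mean of this class was lower at 56 h, with chromosome differences from -0.35 to 0.13 points, and on 6 of them both 56 h libraries lay below both 40 h libraries, on 0 above. Chromosomes share the 4 libraries and are not replicates. Intermediate tiles of 90% or more (8510) had 94.99% and 95.01% at 40 h and 94.86% and 94.94% at 56 h, and were lower at 56 h on 15 of 19 chromosomes. Dense tiles of 90% or more (1756) had 96.49% and 96.53% at 40 h and 96.26% and 96.58% at 56 h, where the groups overlapped.

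At the opposite end, unmethylated tiles differed by under 1 point, and none of their classes passed the test. Sparse tiles under 10% (3743) had 1.29% and 1.36% at 40 h and 1.45% and 1.36% at 56 h, apart by less than the range within the 56 h pair. Intermediate tiles under 10% (7643) had 0.83% and 0.84% at 40 h and 0.89% and 0.83% at 56 h, and dense tiles under 10% (5006) had 0.66% and 0.68% against 0.72% and 0.67%. The last 2 classes overlapped between groups.

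Partly methylated classes differed by under 1 point when each tile counted equally. Sparse tiles of 30 to 70% (1473) had 53.1% and 53.8% at 40 h and 54.0% and 53.9% at 56 h, intermediate ones (858) 49.96% and 50.55% against 50.52% and 50.68%, and dense ones (302) 47.64% and 47.76% against 47.64% and 47.33%. With reads summed, the dense class read 37.0% and 41.6% at 40 h and 39.2% and 43.3% at 56 h. Replicate 1 was then below replicate 2 in both groups, as in all 5 pairs of the series in the 3 classes of 30 to 70%, and 1 tile held 16.1% of the reads of the class. The difference of 1.94 points in summed reads for the dense class became -0.22 with tiles weighted equally, so no direction is given for it. Sparse tiles of 70 to 90% (3492) had 83.17% in both 40 h replicates and 82.96% in both 56 h replicates, a difference of -0.21 points with a standard error of 0.14 (limma adjusted p = 0.637). By the mean over tiles 6 of 15 classes (40%) had groups that did not overlap, and with summed reads 4 of 15 (26.7%). The exact permutation test cannot go below 0.333 for any class.

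**Figure D3:**
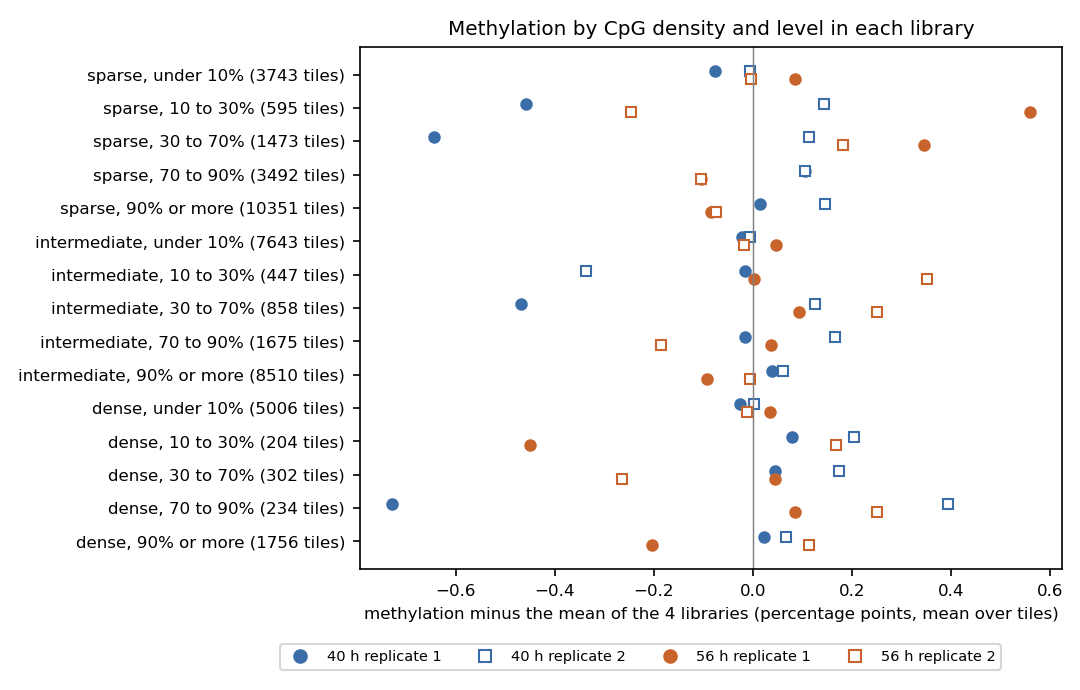
Methylation of each class in each of the 4 libraries, as the difference from the mean of the 4 (x axis, percentage points, mean over tiles), by CpG density and level (y axis). All values lie within 1 point of the mean of the 4; in sparse tiles of 70 to 90% and of 90% or more both 56 h libraries (orange) lie left of both 40 h libraries (blue).

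Tiles that differed early and late in the other libraries were followed next. The lower list held tiles in which all 4 libraries of 72 h and 120 h lay below both 24 h libraries, by 10 percentage points or more between the means and with 30 or more observations in each of those 6 libraries, so that no 40 h or 56 h library picked them. Mean methylation over its 78 tiles was 57.2% and 59.3% in the 40 h replicates and 55.5% and 55.6% in the 56 h replicates. The groups of libraries did not overlap, and the means of 58.2% ± 1.5 (SD, n = 2) and 55.6% ± 0.061 differed by -2.7 points (exact permutation test, two-sided, p = 0.333, the smallest that 2 libraries against 2 allow). Of the 78, 48 were lower at 56 h. The 56 h libraries lay below both 40 h libraries in 18 of the 78 (23.1%, against 14.4% of all tiles). They lay above them in 10 (12.8%, against 13.9%). Among other tiles in this list's range of methylation outside the comparison the shares were 16.5% below and 15.9% above. With at least 60 observations required the list held 10 tiles and the direction turned, at 2.0 points. Without 40 h replicate 2 the difference was -1.6. With reads summed over the 78 tiles it was -1.2, less than the replicate SD of 2.8 on that scale. Cells kept in estradiol had 60.9% on the 78 tiles, and the 24 h libraries that picked the list were higher, at 68.4% and 63.3%.

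The higher list, tiles at least 10 points higher late than at 24 h, differed by less than 1 point. Whether the lists differ in their step was not tested. The 72 tiles averaged 50.2% and 49.5% in the 40 h replicates and 50.5% and 50.3% in the 56 h replicates, a difference of 0.58 points (exact permutation test, two-sided, p = 0.333). The median difference had the other sign, at -0.54 points, with 37 tiles lower and 35 higher at 56 h. The 56 h libraries lay above both 40 h libraries in 14 of the 72 (19.4%, against 13.9% of all tiles). They lay below them in 14 (19.4%, against 14.4%). Among other tiles in this list's range of methylation outside the comparison the shares were 16.3% above and 16.4% below. Cells kept in estradiol had 50.1% on the 72 tiles, as high as the 40 h libraries. The 24 h libraries that picked the list were low, at 38.0% and 43.3%. The value was 0.88 without 40 h replicate 1, 0.27 without 40 h replicate 2 and -2.8 in the 12 tiles left when at least 60 observations were required. Only 3 tiles were 20 points or more higher late. They averaged 28.7% and 39.7% at 40 h and 36.3% and 41.9% at 56 h, with overlap.

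The difference of the lower list lay mostly in its most strictly picked tiles. At 20 points or more in the picking libraries, an alternative to the 10 points of the main list, 11 tiles were left. Of picks at 10, 15 and 20 points this one gave the largest difference. The pick at 15 points (20 tiles) gave -7.53 points. In the other 67 tiles of the main list, of 10 to 20 points, the difference was -0.99 points. These picks are nested and all hold the same 11 tiles, so their values do not show a gradual rise. Mean methylation over the 11 tiles was 56.1% and 58.5% in the 40 h replicates and 43.3% and 45.5% in the 56 h replicates. The means were 57.3% ± 1.7 (SD, n = 2) at 40 h and 44.4% ± 1.6 at 56 h, a difference of -12.9 points, and the groups of libraries did not overlap. At least 60 observations left too few of these tiles for a value.

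The difference of -12.9 points was several times the spread between replicates, while the exact permutation test (two-sided, p = 0.333) gave the smallest p that 2 libraries against 2 allow. All 11 tiles had a lower mean at 56 h, with differences from -28.4 to -1.9 points and a median of -13.6. Over all 42678 tiles 50.2% had a lower mean at 56 h. The median difference over the 42629 tiles with enough observations for picking was -0.01 points. Both 56 h libraries lay below both 40 h libraries in 6 of the 11 tiles, against 14.4% of all tiles tested. The reverse order was seen in 0 of the 11, against 13.9%. Among other tiles in this list's range of methylation outside the comparison the shares were 16.3% and 16.1%. None of the 11 passed the adjusted threshold on its own, and 4 had an unadjusted p under 0.05, against 5.14% of all tiles. These 4 are sparse or dense tiles of 30 to 70%, where the share was higher, at 6.65% of sparse and 17.5% of dense tiles.

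At the other groups the same 11 tiles averaged 67.8% in cells kept in estradiol, 69.6% and 66.7% at 24 h, 44.0% and 42.9% at 72 h, and 41.4% and 41.5% at 120 h. The 24 h and the late libraries picked the tiles, so their distance is a description only. On the scale from the 24 h mean (0) to the mean of the late libraries (1), the 40 h mean lay at 0.42 and the 56 h mean at 0.92. By tile, the 56 h mean was nearer to the late than to the 24 h mean in 8 of 11 tiles, and the 40 h mean in 4 of 11. The value for 56 h averages tiles on both sides of the late level. In the 4 tiles with an unadjusted p under 0.05 the 56 h mean lay below the means of both 72 h and 120 h, as at chr3:97723001-97723500 with 40.6% against 52.9% and 56.7%. At chr2:119122501-119123000 it was 83.1%, above 63.2% and 56.8%, and at chr19:3700501-3701000 it was 78.9%, above 69.1% and 56.5%.

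**Figure D4:**
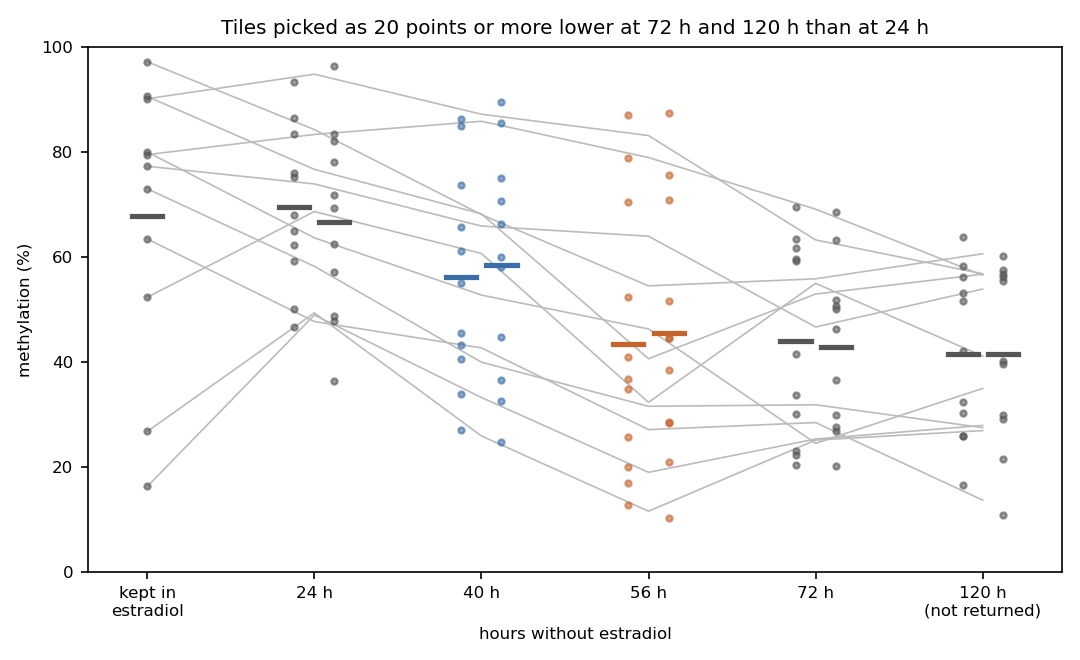
Methylation (%, y axis) of the 11 tiles picked as 20 points or more lower at 72 h and 120 h than at 24 h, by hours without estradiol (x axis). Each point is 1 tile in 1 library, replicate 1 left and replicate 2 right, bars are the means over tiles and grey lines join the group means of a tile; the bars fall from 56.1% and 58.5% at 40 h (blue) to 43.3% and 45.5% at 56 h (orange).

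The 11 tiles were mostly CpG-sparse. Of the 11 tiles 9 were sparse (81.8%) and 2 were dense. Of the 42629 tiles with enough observations for picking 43.1% were sparse. That base includes tiles under 10%, which cannot fall by 20 points, so the shares are not alike. Tiles of 30 to 70% were 1473 sparse, 858 intermediate and 302 dense, and those of 70 to 90% were 3492, 1675 and 234. Whether the 11 were sparse more often than such tiles was not tested.

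Among these 11 tiles the largest difference was at the dense tile chr5:34339001-34339500, with 55.0% and 66.3% at 40 h and 20% and 44.5% at 56 h (unadjusted p = 0.00423, adjusted p = 0.76 by the quasi-binomial test, moderated with limma). The 56 h replicates were far apart there, and both lay below the 40 h pair. The sparse tile chr3:97723001-97723500 had 65.7% and 70.7% at 40 h and 36.7% and 44.4% at 56 h (unadjusted p = 0.0022). It lay 17851 bp from a start of Sec22b, which encodes a protein of vesicle transport, and had 76.7% ± 2.0 at 24 h and 90.6% in cells kept in estradiol.

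At the dense tile chr15:98465501-98466000, 303 bp from a start of Cacnb3, a calcium channel subunit gene, methylation was 27.1% and 24.7% at 40 h and 12.8% and 10.3% at 56 h (unadjusted p = 0.0136). The 56 h libraries there were below the 120 h libraries as well, at 32.3% and 21.5%, and the 24 h libraries were far apart, at 62.2% and 36.4%. Cells kept in estradiol had 26.7% at this tile, near the 40 h level. The sparse tile chr13:18085001-18085500, 48950 bp from a start of Rala, a small GTPase gene, had 33.8% and 32.6% at 40 h and 16.9% and 20.9% at 56 h (unadjusted p = 0.0287). Cells kept in estradiol had only 16.3% at this tile, so its level was not highest without withdrawal. The sparse tile chr15:59538501-59539000 had 40.6% and 44.7% at 40 h and 25.6% and 28.6% at 56 h, and chr19:58206501-58207000 had 43.2% and 36.6% against 34.8% and 28.3%. In all 6 tiles named so far the groups of libraries did not overlap.

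The other 5 tiles overlapped between groups. They were chr2:119122501-119123000 (84.9% and 89.5% at 40 h, 78.8% and 87.5% at 56 h, 8023 bp from a start of Vps18, a gene of lysosomal transport), chr2:72875501-72876000 (45.5% and 60%, then 40.9% and 51.6%), chr5:32726001-32726500 (61.1% and 75.0%, then 70.5% and 38.5%), chr16:22295001-22295500 (73.7% and 58.1%, then 52.3% and 75.6%) and chr19:3700501-3701000 (86.2% and 85.5%, then 87.0% and 70.8%). In the last 2 of these 1 of the 56 h replicates lay above both 40 h libraries.

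Promoters were read next. A RefSeq promoter (300 bases, 250 before and 50 after a gene start) was placed where at least 6 deposited CpGs lay exactly at its CpGs, with no deposited CpG elsewhere in it and no second such place on the chromosome. Of 31396 promoter sequences 7804 were placed and 6246, of 5611 genes, had 3 CpGs and 30 observations in each of the 4 libraries. None came from chromosome 18. Most were unmethylated, with 5067 (81.1%) under 10% in all 4 libraries and 535 above 90%. The test called 0 of 4618 (0%), with 267 (5.78%) at an unadjusted p under 0.05, and 95.04% of promoters differed by less than 5 points.

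Progenitor genes were represented by 6 promoters of 5 of the 20 genes listed. Of these 5 were under 10% in all 4 libraries. They were those of Bcl2, which blocks apoptosis, of the receptor tyrosine kinase gene Flt3, at 0% in all 4, of the transcription factor gene Gata2 (2 promoters) and of Runx1, a transcription factor needed for blood stem cells. Their levels were at most 2.2% and their differences within 1 point.

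The exception was a promoter of Cdk6, a cell cycle kinase gene of blood progenitors, with 26.5% and 14.5% at 40 h and 42.3% and 43.3% at 56 h on 52 to 68 observations. The groups did not overlap and differed by 22.3 points (unadjusted p = 0.00442, adjusted p = 0.548 by the quasi-binomial test, moderated with limma). Groups that did not overlap and differed by 10 points or more were found in 1.58% of placed promoters tested. With CpGs weighted equally the Cdk6 promoter had 22.6% and 12.1% at 40 h and 34.0% and 31.3% at 56 h, a smaller difference. The 250 bases before this start are shown, from RefSeq (GRCm38.p6, chr5:3343643-3343892, plus strand), with the 10 CpGs read in all 4 libraries in capitals.

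Cdk6: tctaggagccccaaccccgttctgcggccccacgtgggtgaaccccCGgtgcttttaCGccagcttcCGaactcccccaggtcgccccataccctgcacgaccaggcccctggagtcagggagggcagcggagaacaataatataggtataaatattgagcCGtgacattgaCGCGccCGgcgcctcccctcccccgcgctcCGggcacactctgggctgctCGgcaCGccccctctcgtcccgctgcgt

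The 3 CpGs nearest the start, the last in capitals, had 0 methylated reads in all 4 libraries. They held 21 and 9 observations in the 40 h replicates and 6 and 3 in the 56 h replicates, a larger share of the 40 h reads. Over the other 7 CpGs methylation was 38.3% and 17.4% at 40 h and 47.8% and 45.3% at 56 h. The 40 h replicates were farther apart there than the means of 40 h and 56 h. With the reads of each group pooled, 6 of these 7 were higher at 56 h. At the CpGs 204 and 183 bp before the start, 40 h replicate 1 had 7 of 12 observations methylated. That is a slightly larger share than in the 56 h replicates, with 4 of 7 and 6 of 11 at each. Many of these observations are the same reads seen at neighbouring CpGs. The other libraries had 26.8 to 39.8% at this promoter, below both 56 h libraries and above both 40 h libraries.

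Myeloid factors were represented by 5 promoters of 4 of the 20 genes listed, all under 10% in all 4 libraries. They were those of Cebpb and Stat3, factors of emergency and cytokine-driven granulopoiesis, of Irf4 and of the retinoic acid receptor gene Rara, with levels from 0 to 3.9% and differences of -0.79 to 2.29 points. None of the 20 granule and effector genes, which include Lyz2, the gene behind the Lys-GFP reporter, had a promoter that could be measured, so the labelled cell type could not be checked against them.

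Of the methylation machinery 5 of 10 genes were measured, by 7 promoters. The maintenance methyltransferase gene Dnmt1, its partner gene Uhrf1 and 2 of 3 promoters of the de novo methyltransferase gene Dnmt3a were under 2% in all 4 libraries. The third Dnmt3a promoter, downstream, was at 33.3% and 29.4% at 40 h and 34.0% and 32.8% at 56 h. A promoter of Tet3, which encodes an enzyme that oxidises methylcytosine, had 19.6% and 50.8% at 40 h and 46.7% and 49.3% at 56 h, where only 40 h replicate 1 stood apart. Tdg, which encodes a glycosylase of active demethylation, was at 0 to 10.96%.

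Of 39 Hox genes 4 had a measured promoter, all in the Hoxd cluster and all highly methylated. Hoxd12 had 84.7% and 84.8% at 40 h and 77.6% and 81.4% at 56 h, and the promoters of Hoxd1, Hoxd9 and Hoxd11 lay between 94.0 and 100% in all 4 libraries. Of the genes of other cell types only Tcf7, a T cell factor gene, was measured, at 34.8% and 32.9% at 40 h and 45.3% and 33.3% at 56 h. None of the promoters in any of these lists passed the adjusted threshold. The only one with an unadjusted p under 0.05 was the Cdk6 promoter, and 5.78% of all placed promoters tested had such a p.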

How the data were processed

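The authors deposited 1 table per library with, per CpG, methylated over all reads, and a score of 0 to 1000 equal to 1000 times that share within 1 unit in 100.0% of lines. Reads, not the score, were used. The build was mm9, per the submitters' processing notes. Aligner, caller and duplicate handling: not given in the sources used here. Reads of a tile were fitted by a quasi-binomial logistic model with 1 mean per group (deviance F test, two-sided, dispersion moderated by squeezeVar of limma 3.58.1 and not below 1), using the 4 libraries. Class values were fitted by limma on log2 odds with all 11 libraries. Adjustment was Benjamini-Hochberg. The fit was tested on simulated data. Named regions were up to 10 tiles each way past the threshold, or, with under 5, the 5 of smallest p among tiles 10 points or more apart with groups not overlapping. Promoter placements had to agree within 500 kb with the median of 11 neighbouring placements. The members, lists and tests were chosen with earlier results of these data known. Reads carry no molecular identifiers and can be PCR copies of 1 molecule, so intervals cover counting error only, with observations taken as independent.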

Additional observations from a re-analysis of the deposited data

How the results depend on the processing

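The count of 0 tiles was found under 10 alternatives: 60 observations, 5 CpGs, any listed CpG, no lower limit of the dispersion, limma, all 11 libraries, tiles of 1000 or 5000 bp, no deepest 0.1% of CpGs, and tiles at 5 to 95%. It was also 0 with the replicate block (8 tiles at an unadjusted p under 0.05, smallest adjusted p 1) and without each library in turn (0 to 0, with 16 to 27 tiles and smallest adjusted p 0.93 to 0.94), but these fits have 1 residual degree of freedom a tile and say nothing of stability. With a library left out, the lone sample is assumed to vary like the other group. Tile deviations of same-numbered 40 h and 56 h replicates correlated at 0.01 (Pearson's r across tiles), while in summed reads replicate 1 was below replicate 2 in all 5 pairs in the 3 classes of 30 to 70%. The labels do not say what a number shares. The count of 0 classes was found under its 11 alternatives, the replicate block and each left-out library (0 to 0) among them. Without 40 h replicate 2, 2 classes had an unadjusted p under 0.05. The 78-tile lower list (-2.67 points) gave -12.9 when picked at 20 points, 2.01 at 60 observations and -1.21 with summed reads, and ran from -3.73 to -1.60 with 1 library left out, the weakest without 40 h replicate 2. The higher list (0.58) gave 4.94 at 20 points and -2.80 at 60 observations, and ran from 0.27 to 0.88 with 1 library left out. The 11-tile list (-12.9) gave -7.53 picked at 15 points (20 tiles), -0.99 for tiles of 10 to 20 points and -11.2 with CpGs weighted equally, and ran from -14.1 to -11.6 with 1 library left out. These alternatives for the 11 tiles, and the equal weighting of CpGs, were chosen after seeing the data. At 60 observations fewer than 2 of these tiles were left, so no value is given. Of 77 alternative values for 7 classes, 7 turned sign. The dense class of 30 to 70% went to -0.22 with tiles weighted equally, -0.025 without the deepest CpGs, -0.33 without 40 h replicate 1 and -0.10 without 56 h replicate 2. Without 40 h replicate 1 the sparse and intermediate classes of 30 to 70% went to -0.23 and -0.091, and without 56 h replicate 1 the dense class of 90% or more went to 0.052. Without 40 h replicate 2 the sparse, intermediate and dense classes of 30 to 70% were at 2.11, 4.02 and 4.203, the highest values with 1 library left out. The cause was not tested. The 10 named regions were picked for groups that do not overlap, which fixes their direction when a library is left out, and several alternatives change the test and not the value, so that their 135 alternative values, all of the same sign, were largely set by the choice of regions.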

Other observations

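Placed promoters outside the lists with the smallest p, chosen after their values were seen, are given as values only, since none passed the adjusted threshold (adjusted p = 0.548 by the quasi-binomial test, moderated with limma). Groups that did not overlap and differed by 10 points or more were found in 73 of the 4618 promoters tested (1.58%). The promoter of Efna5, a gene for a membrane-bound ligand of Eph receptors, had 45.3% and 58.3% at 40 h and 20% and 0% at 56 h, on 30 to 53 observations. The promoter of Wnt1, a secreted signalling ligand gene, had 39.4% and 47.7% at 40 h and 63.0% and 64.5% at 56 h, and a promoter of Tpm1, a tropomyosin gene, had 50.9% and 46.7% against 71.2% and 75.4%. The other libraries lay between the groups at Efna5 (27.9 to 43.4%) and Tpm1 (54.6 to 67.2%). At Wnt1 they had 35.9 to 54.2%, around the 40 h values and below those of 56 h. The promoter of Pcsk2 had 87.5% and 83.3% at 40 h and 97.0% and 97.7% at 56 h, with 83.9 to 96.6% in the other libraries. A promoter of Man1a, a gene of glycan trimming, and the neighbouring one of Gm16998, which share most of their CpGs, were at 11.1% and 29.1% and at 14.3% and 27.4% at 40 h, and at 3.9% and 8.4% and at 5.2% and 8.6% at 56 h. In the 24 h libraries the Man1a promoter had 43.8% and 17.3%, so replicates of 1 group differed there by more than the 40 h and 56 h means.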
